A study of Mus musculus with 8 samples.

Results

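Brdt, Brd2 and Brd3 are genes of the BET family of chromatin readers, and their transcripts were measured in round spermatids, the haploid cells that leave meiosis and have not yet begun to elongate. Members were all probe sets of the array that the platform annotation assigns to 1 of these 3 genes alone, under a current or earlier symbol. This gave 9 of 45037 tested probe sets, of which 3 read Brdt, 2 read Brd2 and 4 read Brd3. The mutant group consisted of mice carrying the BrdtΔBD1 allele, named for the loss of the N-terminal one of the bromodomains of Brdt, and the control group was labelled as control without a stated genotype. Both groups were adult 129 Sv/Ev mice of 2 to 4 months. Each of the 4 mutant and 4 control arrays held round spermatids pooled from 7 animals, purified on an albumin gradient, so the spread between arrays is a spread between pools. The allele is carried in every cell of the animal, and the labels give no measured purity.

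BET proteins carry a pair of bromodomains, which bind acetylated lysines on histone tails, and an extraterminal domain that recruits other proteins. Brdt is the testis-specific member. It is expressed from meiosis onward, binds hyperacetylated histone H4 and is known in the mouse for its part in chromatin compaction in spermatids. Brd2 and Brd3 are broadly expressed members that read acetylated histones at transcribed genes, and Brd3 is also known to bind acetylated GATA1 in erythroid cells.

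The cells read as spermatids in both groups. All 12 round spermatid markers, among them the protamines, transition proteins and the acrosomal gene Acrv1, had group means between 12.53 for Acr in mutant arrays and 15.42 for Prm1 in mutant arrays on the deposited log2 intensity scale. Of these 12 genes 0 passed the test between groups (limma, adjusted p under 0.05), also with the replicate number as a block, and 0 had an unadjusted p under 0.05. Array medians lay between 3.1 and 3.14 and any 2 arrays correlated with r of 0.97 to 0.994. Control arrays 1 and 3 stood apart in RNA integrity, read as the signal of the 3' control probe set of Gapdh minus that of the 5' one, which was 0.33 to 0.94 on mutant arrays, against 1.68 and 2.05 on control arrays 1 and 3 and 0.46 and 0.48 on the other control arrays. The mean of 19 measured Sertoli cell markers was 5.77 to 7.24 on mutant arrays and 4.87 to 5.61 on control arrays, without overlap. In that list 6 genes rose and 0 fell (11 and 0 with the replicate block), where 3.71% of all genes passed in either direction (11.5% with the block). Its median log2 difference was 1.54, beside -0.02 over all genes. The 6 were the intermediate filament gene Vim, at 9.24 in mutant and 6.29 in control arrays, the fatty acid binding protein gene Fabp5, at 7.73 in mutant and 3.72 in control arrays, the tight junction gene Cldn11, at 5.89 in mutant and 4.17 in control arrays, and Defb19, Aard and Cst12, with log2 differences of 3.01, 3.05 and 2.88. With the block the transcription factor gene Wt1, at 5.10 in mutant and 3.95 in control arrays, and Clu, a secreted chaperone, at 12.16 in mutant and 10.49 in control arrays, were among those that also rose. Sox9 was at 3.80 in both groups and Amh at 1.95 in mutant and 1.97 in control arrays, and neither passed. Amh lay below the array medians and Sox9 not far above them, so both were dim. On control arrays 7 of the 19 markers had a mean of at least 5.

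The promoter windows of the 3 genes are shown to set the testis-specific Brdt, the member that passed the test, beside its broadly expressed relatives. They run from 250 bases before to 50 bases after a transcription start, come from RefSeq on GRCm38.p6, and are printed 5′ to 3′ on the gene's own strand. Capitals mark motifs searched on both strands: the E-box with the letters CACGTG, the box with the letters CCAAT, the cyclic AMP response element (CRE) with the letters TGACGTCA, the box of G and C with the letters GGGCGG (GC box), and the TATA box with the letters TATAAA. Brd2 has 3 windows in the table, of which the one furthest upstream is printed.
Brdt, chr5:107330944-107331243, plus strand: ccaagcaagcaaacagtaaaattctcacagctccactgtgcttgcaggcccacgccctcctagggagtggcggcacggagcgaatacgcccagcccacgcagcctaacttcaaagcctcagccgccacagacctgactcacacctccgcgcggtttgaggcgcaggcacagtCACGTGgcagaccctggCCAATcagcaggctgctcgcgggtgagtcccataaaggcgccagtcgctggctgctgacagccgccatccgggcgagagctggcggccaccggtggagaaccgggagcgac
Brd2, chr17:34122558-34122857, minus strand: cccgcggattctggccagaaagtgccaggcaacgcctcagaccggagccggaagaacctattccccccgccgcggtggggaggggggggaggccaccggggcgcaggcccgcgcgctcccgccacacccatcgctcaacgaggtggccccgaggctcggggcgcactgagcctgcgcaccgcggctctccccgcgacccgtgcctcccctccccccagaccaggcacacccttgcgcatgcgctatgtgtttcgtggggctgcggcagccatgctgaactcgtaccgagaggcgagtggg
Brd3, chr2:27475349-27475648, minus strand: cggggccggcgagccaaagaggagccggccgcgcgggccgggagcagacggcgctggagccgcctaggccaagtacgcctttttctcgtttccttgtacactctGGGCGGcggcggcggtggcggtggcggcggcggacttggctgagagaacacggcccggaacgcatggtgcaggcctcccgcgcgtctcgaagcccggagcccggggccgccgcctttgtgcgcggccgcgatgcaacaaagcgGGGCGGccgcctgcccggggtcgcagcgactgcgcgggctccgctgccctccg
The Brdt window held 1 E-box, starting at position -78 from the transcription start, and 1 CCAAT box at -61, which do not overlap. An E-box is found in 7.15% and a CCAAT box in 37.4% of the 32851 windows of this length. The Brd3 window held 2 GC boxes, at -146 and -3, and the printed Brd2 window held none of the 5 motifs, while each of the other two Brd2 windows held 1 GC box. A GC box occurs in 35.7% of all windows. The CRE (1.79% of windows) and the TATA box (13.6%) were found in 0 of the 5 member windows. CpG dinucleotides numbered 23 in the Brdt window, 32 in the printed Brd2 window and 46 in the Brd3 window, against a median of 7 over all windows. Fewer were found in 78.5%, 90.5% and 98.4% of all windows. The other Brd2 windows held 24 and 14. The G+C content of the printed windows was 64.7%, 72.3% and 75%, against a median of 52.7%. Such matches describe the sequence and were not tied to binding or activity.

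Brdt read lower on the arrays of mutant spermatid preparations. Its brightest probe set, 1435502_a_at, read 11.09, 10.68, 10.29 and 10.62 on mutant arrays 1 to 4, against 12.13, 12.24, 11.72 and 12.25 on control arrays 1 to 4. The highest mutant array lay below the lowest control array, and the mutant array was lower in all 4 pairs of arrays with the same replicate number, by 1.04, 1.56, 1.43 and 1.62 on the log2 scale. The titles state no pairing, and these numbers were taken as pairs because same-numbered arrays deviated together across genes. Means were 10.67 ± 0.33 in mutant and 12.08 ± 0.25 in control arrays (SD, n = 4 each), which is 2.66-fold lower with a 95% interval of 1.99-fold to 3.57-fold. The log2 difference was -1.41 (SE 0.19), with an adjusted p of 0.012 over all probe sets and 0.0074 over genes, each gene represented by its brightest probe set (limma, Benjamini-Hochberg). With the replicate block the SE was 0.13 and the adjusted p over probe sets 0.0055, in a fit in which 6.43% of all probe sets passed. Of the 336 genes that read lower on mutant arrays by the test over genes, 105 fell by more than Brdt and the median fall was -1.18.

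A further Brdt probe set, 1450178_at, which the annotation ties to a Brdt RefSeq transcript, was also lower. It read 9.87, 9.89, 9.38 and 9.41 on mutant arrays 1 to 4, against 10.83, 10.55, 10.24 and 10.45 on control arrays 1 to 4. Again the groups did not overlap and the mutant array was lower in all 4 pairs. Means were 9.64 ± 0.28 in mutant and 10.52 ± 0.25 in control arrays (SD, n = 4 each), which is 1.84-fold lower with a 95% interval of 1.4-fold to 2.41-fold. The adjusted p of 0.0495 over probe sets lay just under the threshold and was 0.010 with the block. The third Brdt probe set, 1444667_at, read 2.26 to 3.03 on mutant arrays and 2.54 to 3.02 on control arrays, all below the array medians, with overlapping groups. Its log2 difference was 0.01 (SE 0.20, adjusted p = 0.99), with a sign that turned when single arrays were left out. Whether any of the 3 overlaps the deleted sequence could not be read from the annotation, and the genotype labels were therefore not checked by them.

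**Figure D1:**
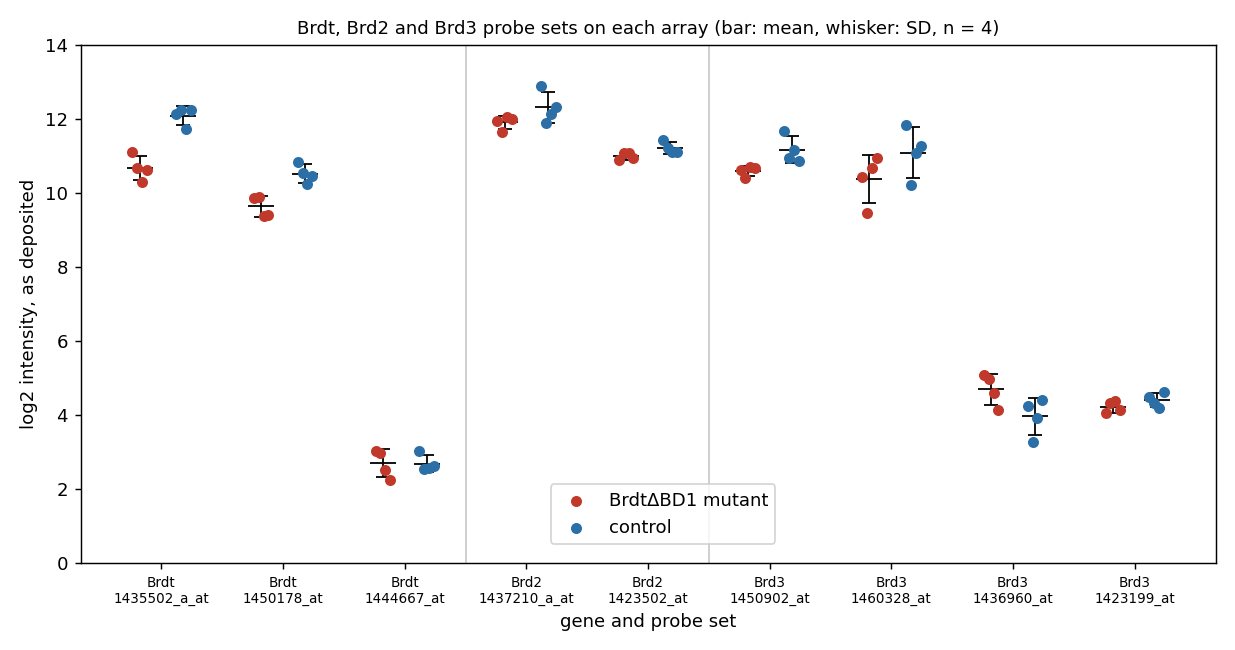
Log2 intensity (vertical axis) of each of the 9 probe sets (horizontal axis) on 4 BrdtΔBD1 mutant arrays (red, left) and 4 control arrays (blue, right), with the mean as a bar and the SD as whiskers. The 2 brighter Brdt probe sets separate the groups fully, at 10.29 to 11.09 on mutant and 11.72 to 12.25 on control arrays for 1435502_a_at, and 9.38 to 9.89 on mutant and 10.24 to 10.83 on control arrays for 1450178_at.

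The sizes of these 2 falls were compared on the arrays, in a test that could not settle whether they differ. The log2 difference of 1435502_a_at was lower than that of 1450178_at by -0.53, seen as a per-array gap between them of 0.78 to 1.22 in mutant and 1.29 to 1.80 in control arrays. The exact permutation test of both directions gave p = 0.0286, the smallest possible for 4 against 4 arrays. After adjustment over 8 pairs of probe sets of 1 gene it was 0.076. Even at this smallest p, a pair could pass after adjustment only if more of the 8 pairs reached it too. The adjusted value therefore does not decide whether the 2 falls differ. Pairs with 1444667_at, whose mean lay under 4, were not among the 8. In the mean of all 3 Brdt probe sets, which includes the dim one, the gene still fell, by 0.76 on the log2 scale (SE 0.16, adjusted p = 0.047 over genes).

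Brd2, the broadly expressed BET gene on chromosome 17, did not pass the test. Probe set 1437210_a_at read 11.93, 11.64, 12.06 and 11.98 on mutant arrays 1 to 4, against 12.87, 11.87, 12.14 and 12.33 on control arrays 1 to 4. The groups overlapped, although the mutant array was the lower one in all 4 pairs. Its means were 11.90 ± 0.18 in mutant and 12.30 ± 0.42 in control arrays (SD, n = 4 each), a log2 difference of -0.40 (SE 0.21, adjusted p = 0.41 over probe sets and 0.20 with the block). The 95% interval of that difference ran from -0.87 to 0.06, so a 1.83-fold lower level and one above that of control both lie within it. Probe set 1423502_at read 10.89, 11.07, 11.07 and 10.93 on mutant arrays, against 11.43, 11.21, 11.10 and 11.10 on control arrays. Its groups did not overlap, by a margin of 0.03 between 11.07 and 11.10, and its log2 difference was -0.22 (SE 0.11, adjusted p = 0.38).

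Brd3, on chromosome 2, was read by 2 bright and 2 dim probe sets, whose differences had both signs and did not pass the test. The brightest, 1450902_at, read 10.62, 10.40, 10.69 and 10.68 on mutant arrays 1 to 4, against 11.67, 10.95, 11.16 and 10.85 on control arrays 1 to 4. All mutant arrays lay below all control arrays, with means of 10.60 ± 0.13 in mutant and 11.16 ± 0.36 in control arrays (SD, n = 4 each), which is 1.47-fold lower. The log2 difference of -0.56 (SE 0.18, 95% interval -0.96 to -0.15) had an unadjusted p of 0.012 and missed the threshold after adjustment, at 0.18 over probe sets and 0.087 with the block. Probe set 1460328_at read 10.43, 9.46, 10.67 and 10.94 on mutant arrays 1 to 4, against 11.83, 10.20, 11.06 and 11.26 on control arrays 1 to 4. Here the groups overlapped while all 4 pairs were lower in the mutant array, and the log2 difference was -0.71 (SE 0.39, adjusted p = 0.45). With the block, which takes out the low level shared by the arrays numbered 2, its SE was 0.19 and its adjusted p 0.081. Without 1 array the log2 difference ran from -1.01, without control array 2, to -0.41, without mutant array 2, and was -0.47 without control array 1. It was -0.36 without control arrays 1 and 3 and -1.68 with the mean of the Sertoli cell markers as a covariate. The probe set missed the threshold in each of these fits.

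The dim Brd3 probe sets gave other values. Probe set 1436960_at read 5.08, 4.97, 4.58 and 4.14 on mutant arrays 1 to 4, against 4.25, 3.28, 3.93 and 4.40 on control arrays 1 to 4, a log2 difference of 0.73 (SE 0.28, adjusted p = 0.26). Among the other members only 1444667_at, at 0.01, had a positive difference, and 3 of 4 pairs had the higher reading on the mutant array. Probe set 1423199_at read 4.05 to 4.37 on mutant and 4.19 to 4.63 on control arrays, a log2 difference of -0.19 (SE 0.13, adjusted p = 0.56). The difference of 1436960_at exceeded that of 1423199_at by 0.92 and the difference of 1460328_at was below that of 1436960_at by -1.44. Each had an exact permutation p of 0.0286 and an adjusted p of 0.076, with the limit given above for the Brdt pair. Averaged over its 4 probe sets, Brd3 had a log2 difference of -0.18 (SE 0.17, adjusted p = 0.61 over genes), compared with -0.56 for its brightest one. Probe sets 1423199_at, 1450902_at and 1460328_at share 1 source sequence in the annotation, so they are not independent readings of the gene.

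**Figure D2:**
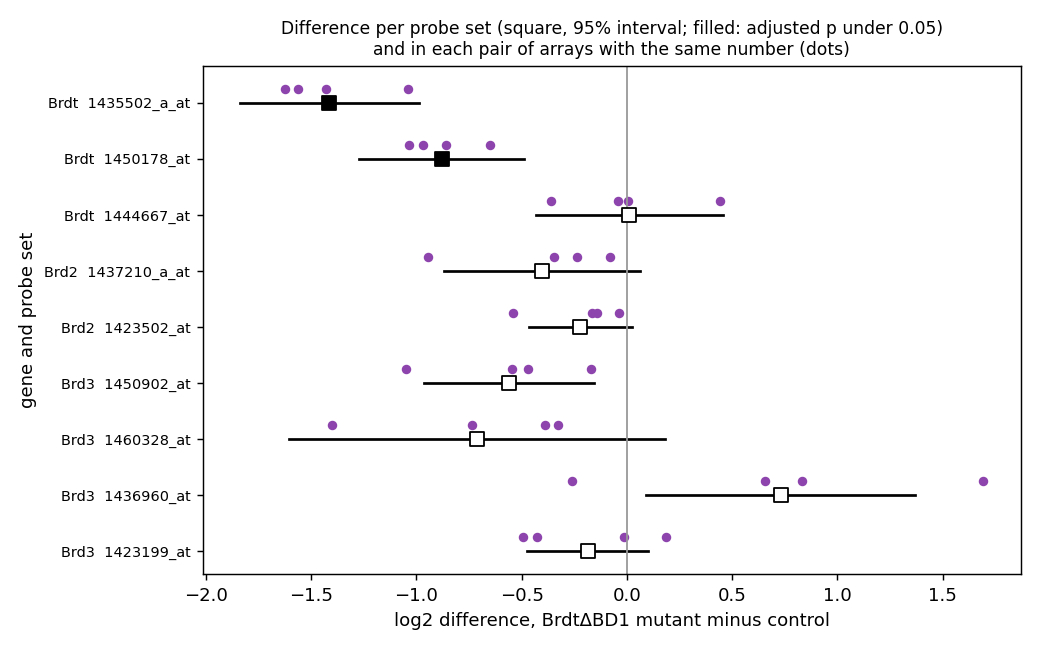
Log2 difference, BrdtΔBD1 mutant minus control (horizontal axis), for each of the 9 probe sets, as a square with its 95% interval, filled where the adjusted p is under 0.05. Dots above each square are the differences in the 4 pairs of same-numbered arrays. The Brdt squares at -1.41 and -0.88 are the filled ones, and Brd3 1436960_at, at 0.73, lies on the other side of 0.

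Counted together, 2 of the 9 member probe sets passed the test, both of Brdt and both lower in mutant arrays. By the same test 1.42% of all 45037 probe sets passed, and 0.702% passed as lower. Over genes, 1 of 3 members fell, against 1.85% of 18193 genes that fell and 3.71% that passed in either direction. Without control arrays 1 and 3, 0 of the 9 passed, and 0.0777% of all probe sets did. Groups did not overlap for 4 of the 9 probe sets, all lower in mutant arrays (2 of Brdt, 1 of Brd2 and 1 of Brd3), where 4.75% of all probe sets were lower without overlap. The mutant array was the lower one in all 4 pairs for 6 of the 9, compared with 15.7% of all probe sets. These 6 are the brighter probe sets of the 3 genes, more than 1 to a gene, and include those of the mutated gene Brdt. The shares given run over probe sets of any brightness, so they are not a matched background. The median log2 difference over all probe sets was -0.03.

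Whether Brdt changed by more than its relatives was tested on the arrays themselves, as the per-array difference between the brightest probe sets of 2 genes. The log2 difference of Brdt was lower than that of Brd2 by -1.01 (exact permutation p = 0.0286) and lower than that of Brd3 by -0.85 (exact permutation p = 0.057). Both had an adjusted p of 0.086 over the 3 pairs of genes and missed the threshold. Alone, a pair at the smallest possible p cannot pass this adjustment, so whether Brdt changed by more was not settled. With the mean of all probe sets standing for each gene, the gaps were -0.45 to Brd2 (adjusted p = 0.17) and -0.58 to Brd3 (adjusted p = 0.086). Brd2 and Brd3 differed from each other by 0.16 in their change (exact permutation p = 0.31).

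Control array 1 weighed on the values of Brd2 and Brd3. It had the highest reading of the 8 arrays for 4 of their 6 probe sets, 12.87 and 11.43 for Brd2 and 11.67 and 11.83 for Brd3. Without it the log2 difference became -0.21 for Brd2 (adjusted p = 0.53 over genes) and -0.39 for Brd3 (0.19), against -1.40 for Brdt (0.028). Without control array 2 the differences were larger, at -0.55 for Brd2 and -0.63 for Brd3 (adjusted p = 0.21 and 0.16 over genes). Control array 1 also had the second highest 3' minus 5' difference. With that measure as a covariate the log2 differences were -0.27 for Brd2, -0.38 for Brd3 and -1.58 for Brdt (adjusted p = 0.61, 0.30 and 0.015 over genes). With the mean of the Sertoli cell markers as a covariate they were -0.57 for Brd2 and -0.58 for Brd3 (adjusted p = 0.67 and 0.59 over genes). The limit of that fit is given below.

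The call on Brdt by 1435502_a_at was lost in 2 of 16 alternative fits, and that by 1450178_at in 11 of 16. In all 8 fits that leave out 1 array, 1435502_a_at passed over probe sets, with an adjusted p of 0.011 to 0.049, whereas 1450178_at passed in 1, the fit without mutant array 2. Without both control arrays 1 and 3 the differences were -1.57 and -0.86, about as large, with adjusted p of 0.079 and 0.20 from fewer arrays. With the mean of the Sertoli cell markers as a covariate, the difference of 1435502_a_at was -1.20 (SE 0.36, adjusted p = 0.24) and that of 1450178_at was -0.35 (SE 0.26, adjusted p = 0.76). No mutant array had a marker mean as low as any control array, so that fit extrapolates. In RNA of mixed cells, fewer spermatids and less Brdt RNA per spermatid cannot be told apart. The 12 spermatid markers had a median log2 difference of 0.0032 on the same arrays. Their group means lay between 12.53 and 15.42 on a scale that ended at 15.71. Whether such bright markers would register fewer spermatids was not tested.

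**Figure D3:**
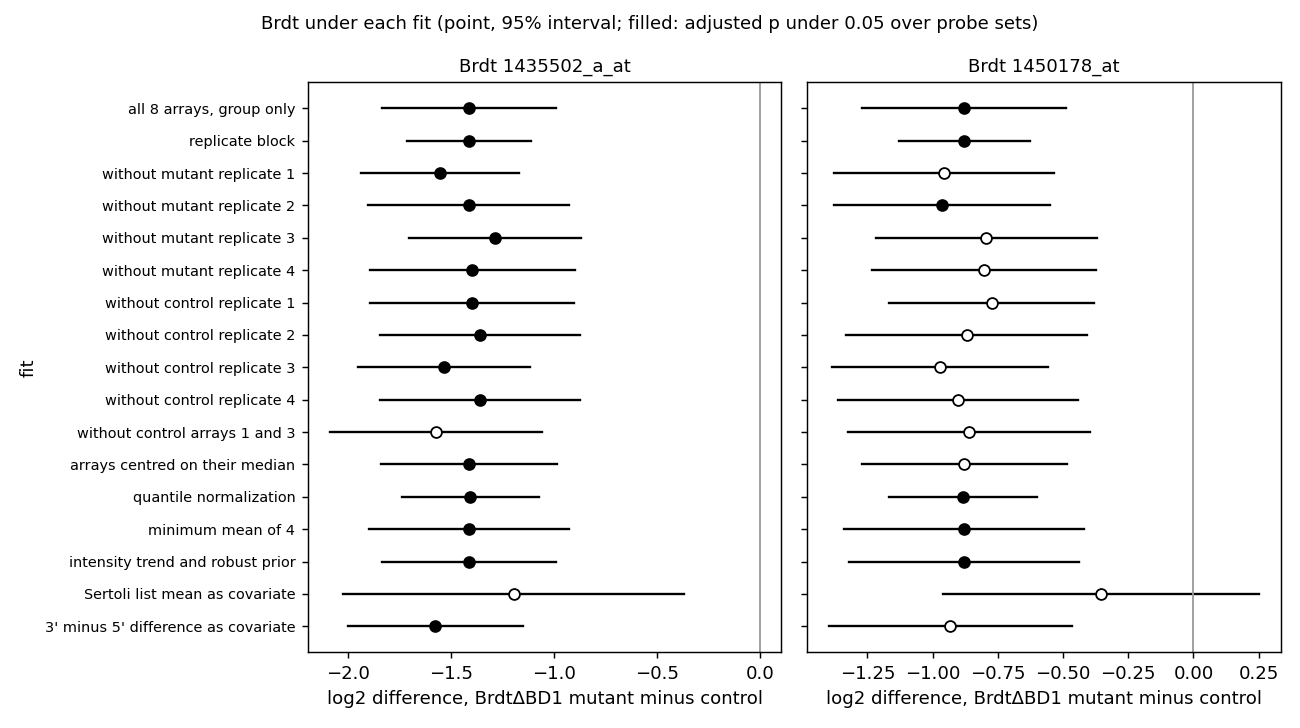
Log2 difference, BrdtΔBD1 mutant minus control (horizontal axes), of the 2 brighter Brdt probe sets under each fit (vertical axis), with 95% intervals, filled where the adjusted p over probe sets is under 0.05. The left panel stays between -1.20 and -1.58. The right panel stays between -0.77 and -0.97 apart from -0.35 with the Sertoli list mean as a covariate.

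**Figure D4:**
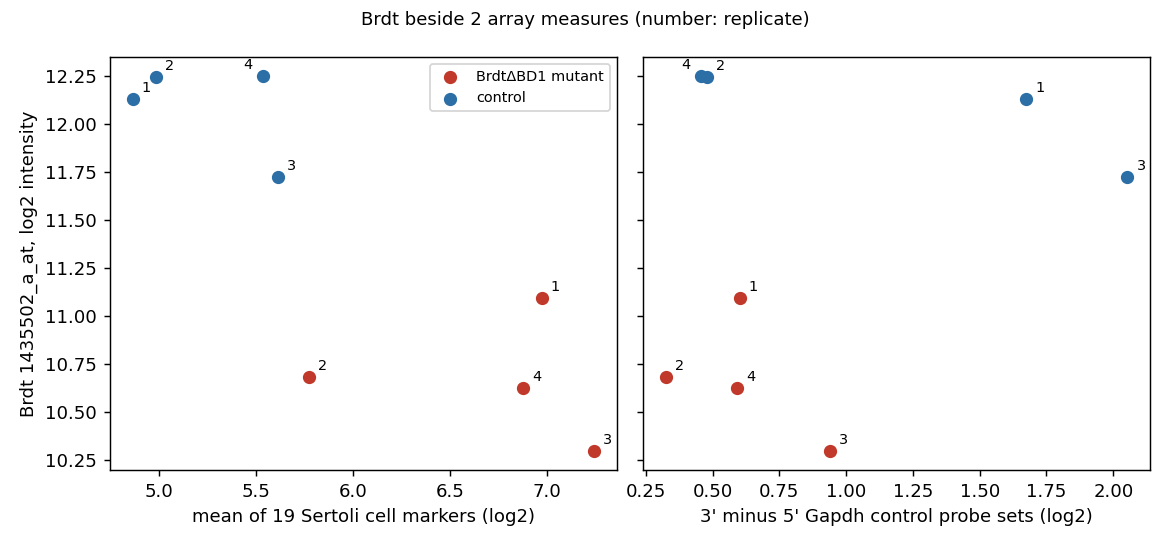
Brdt 1435502_a_at (vertical axes, log2 intensity) against the mean of 19 Sertoli cell markers and the 3' minus 5' measure of Gapdh (horizontal axes, log2) on each array, numbered by replicate, with 4 mutant arrays in red and 4 control arrays in blue. Marker means ran from 5.77 to 7.24 on mutant and from 4.87 to 5.61 on control arrays, without overlap. The 3' minus 5' measure ran from 0.33 to 0.94 on mutant and from 0.46 to 2.05 on control arrays.

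Markers of other cells were compared beside Brdt because it is transcribed from meiosis onward. Of 12 spermatocyte markers 0 passed without the block. With the block 4 were higher in mutant arrays: the synaptonemal complex gene Sycp3, Hormad1 of the meiotic chromosome axis, the meiotic break enzyme Spo11, and Tex101, a germ cell surface protein. Their log2 differences were 0.99, 1.09, 0.89 and 1.5, with adjusted p of 0.011, 0.016, 0.04996 and 0.037 in a fit in which 11.5% of all genes passed. In the same list Ccna1, a meiotic cyclin, averaged 11.70 in mutant and 12.10 in control arrays and was lower in all 4 pairs, with a log2 difference of -0.40 (SE 0.15, adjusted p = 0.17, and 0.11 with the block). By unadjusted p under 0.05, 5 of the 12 were higher and 1 was lower, against 20.2% of all genes in either direction. The mean of the list was 9.66 to 10.61 on mutant and 9.43 to 9.92 on control arrays. Spermatogonia markers averaged 4.63 to 5.39 on mutant and 3.95 to 4.55 on control arrays. On control arrays 3 of the 10 had a mean of at least 5. Without the block 1 of 10 rose, the transcription factor gene Etv5 (4.90 in mutant and 3.62 in control arrays). With the block 4 did, which added Stra8, Dmrt1 and Uchl1. Zbtb16, Sall4 and Ret, with log2 differences of 0.03, 0.16 and -0.11, were among those that passed in neither fit. Which cells these rises came from was not tested. Leydig cell markers, at 2.91 to 3.69 on mutant and 2.69 to 3.02 on control arrays, had 0 of 5 changed, and the peritubular, vascular and blood cell list, at 3.19 to 3.49 on mutant and 2.99 to 3.25 on control arrays, had 1 of 10 risen, the matrix proteoglycan gene Lum (3.91 in mutant and 2.85 in control arrays). These counts stand beside the 3.71% of all genes that passed without the block and the 11.5% that passed with it. On control arrays 0 of the 5 Leydig cell markers and 1 of the 10 in the last list had a mean of at least 5, so most were dim.

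The arrays' ups and downs were next compared between genes. Pearson's r was taken over the 8 arrays for the brightest probe set of each of 7452 other genes with a mean of at least 5. It is a description of shared array differences, group difference included. The genes most like Brdt were Epyc, a proteoglycan (r = 0.98), Xpa, a nucleotide excision repair protein (0.98), Slamf7, an immune cell receptor (0.98), Far1, a fatty acyl-CoA reductase (0.98), and Pdzph1 (0.97). After the group means were removed, r was 0.91 for Epyc, 0.92 for Xpa, 0.83 for Slamf7, 0.84 for Far1 and 0.79 for Pdzph1. Epyc ordered the 8 arrays exactly as Brdt did (Spearman's rho = 1), and r was 0.97 without the 2 arrays farthest from the Brdt median, control array 4 and mutant array 3. Of these 5 genes, Far1 did not pass the test between groups, with a log2 difference of -0.39 (adjusted p = 0.078 over genes).

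Brd2 and Brd3 followed other genes. Nsd2, a histone methyltransferase, was most like Brd2 (r = 0.99, and 0.90 without control array 1 and mutant array 2). Next were Pbxip1 (0.98), the phosphodiesterase gene Pde2a (0.97), Fam185a (0.97) and the immediate early response gene Ier5 (0.97). Most like Brd3 were the zinc finger gene Zbtb22 (0.98, and 0.90 without control arrays 1 and 3), the exocyst subunit gene Exoc3 (0.98), Mfsd6l (0.98), Ttc25, a docking factor of ciliary dynein arms (0.98), and Coa3, an assembly factor of cytochrome c oxidase (0.97). All 10 had their highest reading on control array 1. Brd2 and Brd3 had r = 0.88 with each other, and 0.83 after the group means were removed. Their r was 0.62 without control array 1, 0.61 without control arrays 1 and 3, and 0.29 without control array 1 and mutant array 2. Brdt had r = 0.53 with Brd2 and 0.67 with Brd3, and -0.06 and -0.20 after the group means were removed.

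Genes that act with BET proteins were examined as 4 lists. The P-TEFb list holds the kinase complex that releases paused RNA polymerase II, together with its inhibitors, and 0 of 6 genes passed without the block, while 2 were higher and 1 was lower by unadjusted p under 0.05, a threshold that 20.2% of all genes passed. Cdk9, the kinase, read 8.65, 8.67, 8.90 and 8.54 on mutant arrays 1 to 4, against 8.35, 6.34, 8.02 and 7.45 on control arrays 1 to 4. The groups did not overlap, and the log2 difference was 1.15 (SE 0.38, adjusted p = 0.13 over genes, 0.063 with the block). Ccnt1, its cyclin partner, read 6.10, 5.72, 6.01 and 5.96 on mutant arrays, against 7.57, 7.01, 6.35 and 6.45 on control arrays. It was lower in all 4 pairs, by a log2 difference of -0.90 (SE 0.26), with an adjusted p of 0.092 that became 0.048 with the block. Hexim1, an inhibitor of the kinase, averaged 4.76 in mutant and 4.19 in control arrays, a log2 difference of 0.58 (SE 0.20) whose adjusted p of 0.14 became 0.042 with the block. The median of the list was 0.17, beside -0.02 over all genes.

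Proteins reported to bind BRDT, among them splicing factors and chromatin regulators, gave 0 of 8 changed genes without the block. Smarce1, a subunit of SWI/SNF chromatin remodelers, read 9.33, 9.28, 8.99 and 9.06 on mutant arrays 1 to 4, against 9.91, 9.35, 9.56 and 9.36 on control arrays 1 to 4. Its groups only just did not overlap, with 9.334 on mutant array 1 and 9.345 on control array 2. The log2 difference was -0.38 (SE 0.16, adjusted p = 0.22 over genes). With the block 1 gene of the list rose, Tardbp, an RNA-binding protein of splicing, at 8.88 in mutant against 7.66 in control arrays (adjusted p = 0.0061, and 0.061 without the block). Among proteins reported to bind the extraterminal domain 0 of 5 changed in either fit, with log2 differences from -0.55 for Nsd3 to 0.54 for Atad5. Of 9 histone acetyltransferases, which place acetyl groups on histones, 0 changed without the block and 1 with it. That gene was Ep300, at 5.41 in mutant against 4.86 in control arrays (adjusted p = 0.028, and 0.099 without the block). The medians of these 3 lists were 0.04, -0.12 and 0.03 on the log2 scale. In all 4 lists together, 1 gene fell and 3 rose with the block, in a fit in which 11.5% of all genes passed. Tardbp and Ep300 are named after their values were seen.

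**Figure D5:**
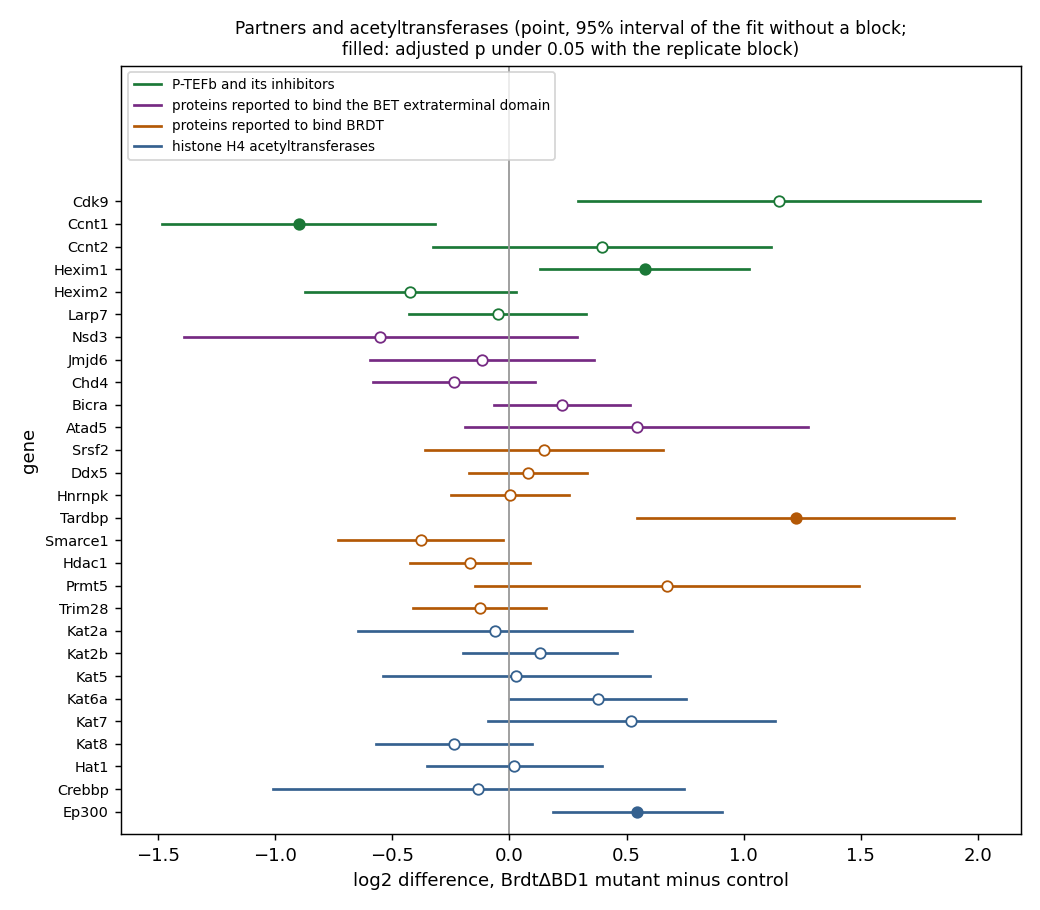
Log2 difference, BrdtΔBD1 mutant minus control (horizontal axis), with the 95% interval of the fit without a block, for each gene of the 4 lists (vertical axis), filled where the adjusted p is under 0.05 with the replicate block. Ccnt1 at -0.90 and Hexim1, Tardbp and Ep300 at 0.58, 1.22 and 0.55 are the filled points.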

How the data were processed

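The authors deposited 1 normalized log2 intensity for each probe set and array. GCRMA and limma appear in the submitters' processing notes, with no version or role. The values run from 0.91 to 15.71. Scanner files were not used here. Control probe sets (64 of 45101) were left out. The platform annotation gave 1 gene to 34945 probe sets, with symbols updated by Entrez identifier through RefSeq (GRCm38.p6), where 34741 were found. A further BET gene is not reported here. Groups and replicate numbers came from the sample titles. The groups were compared over the whole table with limma 3.58.1 (R 4.3.3), with group as the only term and Benjamini-Hochberg adjustment at 0.05. Over 18193 genes, the probe set with the highest mean stood for a gene. Exact permutation tests used SciPy 1.17.1. The fit was checked on simulated arrays with independent noise. These had no shared replicate numbers, RNA integrity differences or Sertoli marker differences, so the check does not cover those features of the data. Same-numbered arrays deviated together (r of 0.362 to 0.591 over genes, against -0.391 to 0.03 for other pairs), so the numbers were taken as pairs. Deviations were taken from the group means, so part of that contrast is built in. The number of arrays limits the precision. Named genes were all member probe sets, the 5 genes most correlated with each member (clone names left out), up to 4 members of each of the 4 lists of genes that act with BET proteins, where past the threshold, and Cdk9, Ccnt1, Hexim1 and Smarce1. Cell type markers, Nsd3 and Atad5 are named outside that rule, after their values were seen. The members and lists were chosen with earlier results of these data known.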

Additional observations from a re-analysis of the deposited data

Results flagged for a closer look

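On the dim Brdt probe set 1444667_at, control array 1 read 3.02, far from the other control arrays, which lay between 2.54 and 2.62. It was the 1 such array in 18 groups of 4 arrays examined, and chance gives about 1 in 20.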

How the results depend on the processing

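Brdt stayed lower under all 17 alternatives at gene level (log2 difference -1.58 to -0.76, adjusted p 0.0023 to 0.18). It missed the threshold without control arrays 1 and 3 (-1.57, adjusted p = 0.059) and with the Sertoli list mean as a covariate (-1.20, adjusted p = 0.18), where at the probe set level 1435502_a_at had the same differences (adjusted p = 0.079 and 0.24). Without 1 array it ranged from -1.55 to -1.29. For 1450178_at the threshold was missed without control arrays 1 and 3 (-0.86), with arrays centred on their median (-0.88, adjusted p = 0.053), with the Sertoli list mean (-0.35), with the 3' minus 5' difference as a covariate (-0.93, adjusted p = 0.095), and in 7 of 8 fits without 1 array (-0.97 to -0.77, adjusted p 0.069 to 0.14). The cause was not tested. Member probe sets past the threshold numbered 2, and 0 without control arrays 1 and 3 or with the Sertoli list mean, 1 with centred arrays or the 3' minus 5' covariate, and 1 to 2 without 1 array. The difference of 1444667_at ranged from -0.10 to 0.16 without 1 array, and with a minimum mean of 4 it was not tested. The 6 Brd2 and Brd3 probe sets kept their direction and missed the threshold under all 16 alternatives (adjusted p 0.081 at the lowest). The gap between Brd2 and Brd3 in their change turned to -0.13 with the mean of all probe sets of a gene. The replicate block changed no call among the members. Their log2 differences are the same with the block, and the adjusted p over genes was 0.0052 for Brdt, 0.17 for Brd2 and 0.072 for Brd3. Exact sign changes within the 4 pairs, a permutation test, cannot go below p = 0.125. Among all features 639 probe sets and 675 genes passed, against 2894 and 2100 with the block, 35 and 68 without control arrays 1 and 3, 993 and 1040 with quantile normalization, 2 and 79 with the Sertoli list mean, 300 and 260 with the 3' minus 5' covariate, and 189 to 1323 and 199 to 1131 without 1 array.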
